A study of Mus musculus with 5 samples.

Results

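The Krüppel-like factors Klf4, Klf6, Klf9 and Klf10 were followed in the mouse ventromedial hypothalamus (VMH), a hypothalamic nucleus known for its part in satiety and energy balance, after electroconvulsive seizures (ECS). The members were taken as all probe sets annotated to these 4 symbols, which gave 13 of the 22690 probe sets on the array, and 4 of 12394 named genes. All mice were C57Bl/6 and were anaesthetised with isoflurane. Shocked mice received ECS through ear clips, either 1 time or 7 times, and brains were taken 2 h or 6 h later, which makes 4 ECS groups. Sham mice were handled alike without current and were taken at 2 h, so any 6 h array set against sham also differs from it in time. RNA of laser-microdissected tissue was pooled from 2 or 3 animals and 1 array of each of the 5 groups was analysed. With single arrays nothing measures the spread within a group, so differences are described by size and none was tested. A repeat with other animals, which the design mentions, was not used here.

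Krüppel-like factors are transcription factors that bind GC-rich and CACCC elements through C2H2 zinc fingers at their carboxyl end, and the Sp factors share that DNA-binding domain. Klf10, first described as a gene induced early by TGF-beta, and Klf9 are repressors that recruit the Sin3A corepressor. Klf6 and Klf4 have activating and repressing domains. Klf9 is known in brain as a target of thyroid hormone and glucocorticoids, and Klf4 and Klf9 are known to restrain axon growth.

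Values are MAS5 signals, 1 intensity per probe set. The median signal per array ran from 20.3 to 31.6, and the log2 median of kept probe sets differed from sham by -0.13 after 1 shock and 0.51 after 7 shocks at 2 h, and by 0.40 and 0.49 at 6 h. For this reason the log2 signals of an array were shifted so that its kept probe sets had a common median, and differences are taken between these shifted values. A centred signal is the shifted value on the linear scale, with a pseudocount of 1.2 included. A probe set was kept when its mean over the 5 arrays lay in the top 50%. Genes were called by size alone, at 2-fold. Of the 13 probe sets, 7 were kept, from Klf6, Klf9 and Klf10. Both Klf4 probe sets fell below that limit. Titles and source names give the VMH, while a descriptive field of the same samples gives the PVN, the paraventricular nucleus. Of the VMH factor Nr5a1 the deposited signal was 50.4 to 173.3, above the median of its array on all 5. The PVN factors Sim1 and Otp were below the filter and below the median of every array. The PVN hormone genes Avp and Oxt were kept, at deposited signals of 5.1 to 54.8 and 11.5 to 61.8. Trh, also a hormone gene of the PVN list, was kept at 90.8 to 184, above the median of its array on all 5. Levels of different probe sets are not comparable, so these values do not settle which label holds.

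The bases before the start site were taken from RefSeq (GRCm38.p6) to show what the region upstream of the brighter members contains. Of the 4 members, 3 were matched in the promoter table: Klf4 (chr4:55532476-55532725, - strand), Klf6 (chr13:5861239-5861488, + strand) and Klf9 (chr19:23140976-23141225, + strand), each for the 250 bases before the annotated start. Klf6 and Klf9, the matched members with kept probe sets, are shown because their levels could be read on the arrays. They are written 5′ to 3′ in the direction of transcription, with CCAAT boxes (CCAAT on either strand) and cAMP response element cores (TGACG on either strand) in capitals.
Klf6: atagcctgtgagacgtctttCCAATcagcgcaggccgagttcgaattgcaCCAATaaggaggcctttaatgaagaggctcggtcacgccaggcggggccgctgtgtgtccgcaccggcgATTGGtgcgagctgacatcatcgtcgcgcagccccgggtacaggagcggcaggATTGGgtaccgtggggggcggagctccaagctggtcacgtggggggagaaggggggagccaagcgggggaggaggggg
Klf9: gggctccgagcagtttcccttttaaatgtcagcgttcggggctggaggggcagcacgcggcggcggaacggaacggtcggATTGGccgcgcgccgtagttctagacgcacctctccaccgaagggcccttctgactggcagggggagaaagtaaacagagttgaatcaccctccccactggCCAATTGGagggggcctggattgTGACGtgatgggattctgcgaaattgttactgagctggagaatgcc
The Klf9 stretch held 1 TGACG, from base 46 to 42 before the start, and 3 CCAAT boxes, of which 2 overlap. The Klf6 stretch held 4 CCAAT boxes, 1 GC box (GGGCGG) and no TGACG. The Klf4 stretch held 1 TGACG on the opposite strand, 4 GC boxes and 1 EGR site (GCGGGGGCG) that overlaps one of them. Of 32851 RefSeq promoters cut to the same length, 17.8% held TGACG, 33.8% CCAAT, 32.7% GGGCGG and 2.57% GCGGGGGCG. An E-box (CACGTG, in 6.02% of promoters) was found in Klf4 and in Klf6. The AP-1 site TGACTCA (4.46% of promoters) and the CArG box of serum response factor (1.47%) were found in none of the 3 stretches. All motifs were searched on both strands, and a match is a description of the letters only.

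Klf10, the TGF-beta-inducible repressor, was higher on each ECS array than on the sham array. Its single probe set read 29.5 on the sham array, 152.1 at 2 h and 88.9 at 6 h after 1 shock, and 284.3 at 2 h and 199.0 at 6 h after 7 shocks, as deposited. The sham array is the lowest of the 5 and both 2 h arrays stand above the 6 h array of the same number of shocks. After centring, Klf10 stood 5.47-fold above sham at 2 h after 1 shock (log2 difference 2.45) and 6.54-fold above it at 2 h after 7 shocks (2.71). Among 6665 kept genes these were the 30th and the 12th highest differences.

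Klf10 at 6 h after 1 shock was 2.23-fold above sham (1.16), the 341st highest difference. After 7 shocks it was 4.66-fold above sham at 6 h (2.22), the 45th highest. These 4 values share 1 sham array and are not independent of each other. The sham reading of 29.5 lay above the median of its array, 23.4, so none of the 4 differences rests on a signal below its array's median. Klf10 has no other probe set here, so nothing on these arrays repeats its measurement.

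Comparisons that do not involve the sham array gave Klf10 its lowest ECS reading at 6 h after 1 shock. After 1 shock, Klf10 was lower at 6 h than at 2 h by a log2 difference of -1.29, the 306th lowest of all kept genes, and by -0.77 without rescaling of the arrays. After 7 shocks the same step was -0.49, short of 2-fold. These differences share no array, and the difference between them was not tested. At 6 h, Klf10 was 2.09-fold higher after 7 shocks than after 1 (1.06, or 0.97 without the filter on low values), and at 2 h it was 1.20-fold higher (0.26). The centred signals behind these were 200 and 239 at 2 h and 81.5 and 170.1 at 6 h, for 1 and 7 shocks.

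**Figure D1:**
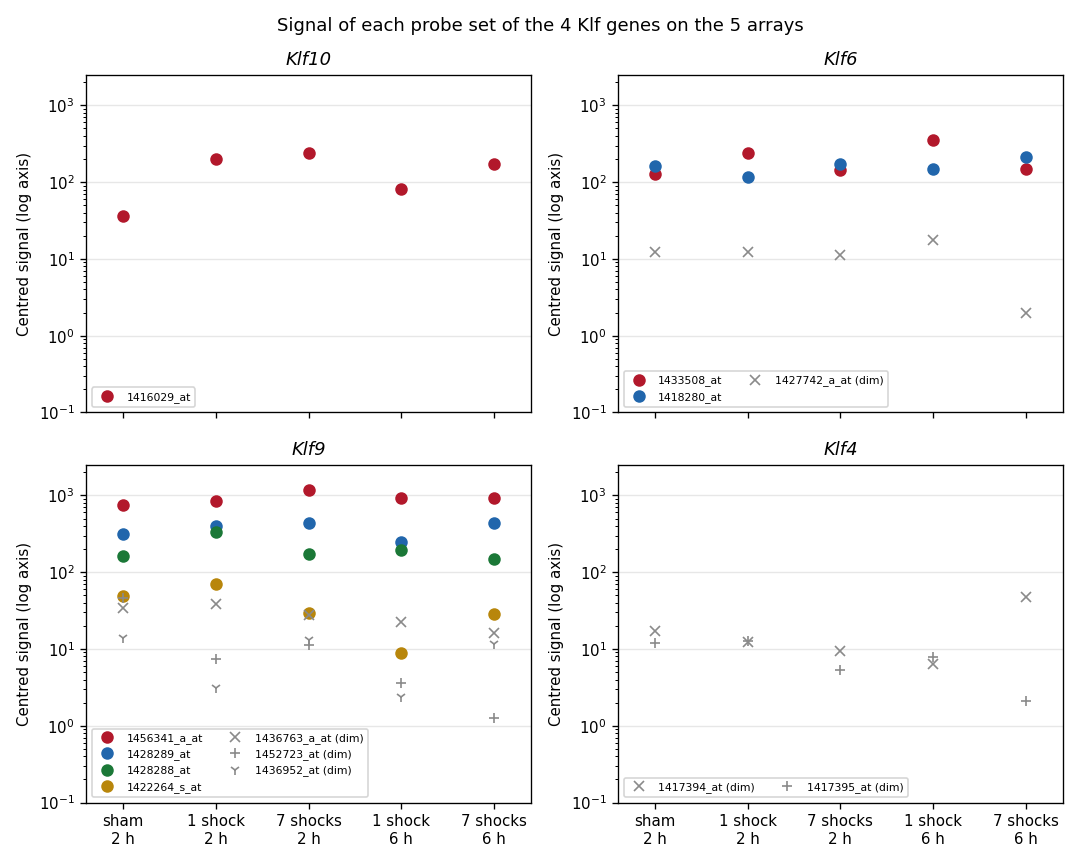
Centred MAS5 signal (log axis) of all 13 probe sets of Klf10, Klf6, Klf9 and Klf4 on the 5 arrays, 1 point per array. Filled circles are kept probe sets, and grey marks are probe sets below the filter. Klf10 runs from 36.5 on the sham array to 239 at 2 h after 7 shocks, and the probe sets of Klf6 and Klf9 take different courses.

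Klf6, a factor induced by injury and growth signals, had a pair of bright probe sets that did not follow each other. The brightest read 106.0 on the sham array, 182.0 at 2 h and 391.4 at 6 h after 1 shock, and 171.4 and 175.7 at 2 h and 6 h after 7 shocks. On it the 1 shock 6 h array is the highest of the 5. The other read 133.3 on the sham array, 88.8 and 162.5 at 2 h and 6 h after 1 shock, and 205.5 and 252.3 at 2 h and 6 h after 7 shocks. On that probe set the 7 shocks 6 h array is the highest and the 1 shock 2 h array the lowest.

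After centring, the brightest Klf6 probe set was 2.78-fold above sham at 6 h after 1 shock (1.48) and the other stood at -0.11, with a mean of 0.68. The log2 differences at 2 h after 1 shock were 0.91 and -0.45. After 7 shocks they were 0.18 and 0.11 at 2 h, and 0.24 and 0.43 at 6 h. The probe sets thus had the same sign after 7 shocks and opposite signs after 1 shock. Of the 1588 genes with exactly 2 kept probe sets, 55.5% had a single sign at 6 h after 1 shock and 55.2% at 2 h after 1 shock. In the comparison of 7 shocks with 1 at 6 h, Klf6 stood at -1.24 on the brightest probe set and 0.54 on the other. A dim Klf6 probe set below the filter read 1.1 to 18.2.

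On the 1 shock 6 h array, where the brightest Klf6 probe set was highest, some endothelial markers were also higher. Of 10 listed endothelial markers 3 were kept, with a summed centred signal of 244 on that array against 66.0 to 125 on the other 4. The angiopoietin receptor Tek passed the filter only through that array, at a deposited signal of 102.3 against 7.2 to 25.6 on the others. Without Tek the sum was 150 there, against 108 on the sham array and 53.5 to 79.6 on the other 3. By centred signal, the tight junction gene Cldn5 stood at 96.5 there against 40.7 on the sham array, and the transporter Slco1a4 at 53.5 against 66.9. The defining markers Pecam1 and Cdh5 were below the filter, at deposited signals of 0.6 to 18 and 1.6 to 18.8, and neither was highest on that array. The part of endothelial markers in the Klf6 result was not tested. In bulk tissue, a change in the number of cells of a type and a change in RNA per cell cannot be told apart.

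Klf9, the hormone-responsive repressor, stayed within 2-fold of sham on its brightest probe set in all 4 comparisons. That probe set read 638.0 on the sham array, 642.8 and 1025.4 at 2 h and 6 h after 1 shock, and 1393.1 and 1092.9 at 2 h and 6 h after 7 shocks. The order of these deposited signals also holds the difference in overall brightness between arrays. After centring, the log2 differences from sham were 0.14 at 2 h and 0.29 at 6 h after 1 shock, and 0.62 at 2 h and 0.29 at 6 h after 7 shocks. Without rescaling of the arrays the value at 2 h after 7 shocks was 1.13.

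The other 3 kept probe sets of Klf9 gave a mixed picture. All 4 were above 0 at 2 h after 1 shock, from 0.14 to 1.03, and 22.6% of the 190 genes with exactly 4 kept probe sets had a single sign in that comparison. At 2 h after 7 shocks 3 of the 4 were above 0, with a range of -0.73 to 0.62. At 6 h after 1 shock they ranged from -2.47 to 0.29, and at 6 h after 7 shocks from -0.77 to 0.47. The value of -2.47 belongs to the dimmest kept probe set, which read 8.5 on that array against 39.7 on the sham array and whose suffix marks possible cross-hybridisation. The brightest and second brightest probe sets were both above 0 in both 2 h comparisons, at 0.14 and 0.32 after 1 shock and 0.62 and 0.45 after 7. Between 2 h and 6 h after 1 shock, the brightest probe set differed by 0.14 and the other 3 kept ones by -2.99 to -0.67. The value of -2.99 again belongs to the dimmest kept probe set. The 3 probe sets below the filter read 0.3 to 37.7.

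Klf4, a regulator of proliferation and of endothelial cells, was dim on these arrays. Its brighter probe set read 13.0 on the sham array, 8.2 and 5.9 at 2 h and 6 h after 1 shock, and 10.1 and 55.2 at 2 h and 6 h after 7 shocks. Only the reading at 6 h after 7 shocks lay above the median of its array. Its other probe set read 9.0 on the sham array, 8.6 and 7.4 after 1 shock, and 5.1 and 1.3 after 7 shocks, in the order 2 h and 6 h, and is lowest on the array where the first is highest. At 6 h after 7 shocks the brighter probe set was 2.84-fold above sham, while the other stood at a log2 difference of -2.51. On the brighter probe set the differences were -0.46 and -0.84 at 2 h after 1 and 7 shocks, and -1.40 at 6 h after 1 shock. On it, the 7 shocks 6 h array also stood 2.90 above the 1 shock 6 h array and 2.34 above the 7 shocks 2 h array. On the other probe set these differences were -1.87 and -1.31. Both probe sets were below the filter and they conflict, so no difference in Klf4 was called. That does not show that there was none.

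Over the 4 genes, 3 had a kept probe set and could be called. Against sham, 1 of these 3 (Klf10) was at least 2-fold higher at 2 h after 1 shock, where 6.29% of kept genes were that much higher and 6.83% lower. At 2 h after 7 shocks it was again Klf10 alone, with 7.1% of genes higher and 6.86% lower. At 6 h after 1 shock 2 were higher (Klf6 and Klf10), with 7.25% and 7.73%. The Klf6 call rests on its brightest probe set, and its other kept probe set stood at -0.11. At 6 h after 7 shocks 1 was higher (Klf10), with 7.4% and 7.25%. None of the 3 was 2-fold below sham on its brightest probe set in any of these comparisons.

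Without the sham, 7 shocks against 1 had none of the 3 past 2-fold at 2 h (7.68% of genes higher, 7.1% lower). At 6 h, Klf10 was higher and Klf6 lower, with 8.6% and 8.97% of genes. Klf6 was lower on its brightest probe set only, with 0.54 on its other kept probe set. From 2 h to 6 h, Klf10 was lower after 1 shock, with 8.19% of genes higher and 7.86% lower. After 7 shocks none of the 3 passed 2-fold, with 6.78% and 6.96%. The share of called genes that were higher depends on the scaling: without rescaling it was 33.9% and 89.9% at 2 h after 1 and 7 shocks, and 82.1% and 87.9% at 6 h, against 47.9% to 50.9% with centring. For the comparisons without sham it was 94.0% and 59.0% for 7 against 1 shock at 2 h and 6 h, and 89.2% for 6 h against 2 h after 1 shock, against 52.0%, 48.9% and 51.0% with centring. Klf10 was above sham by 2.32 or more at 2 h without rescaling too.

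**Figure D2:**
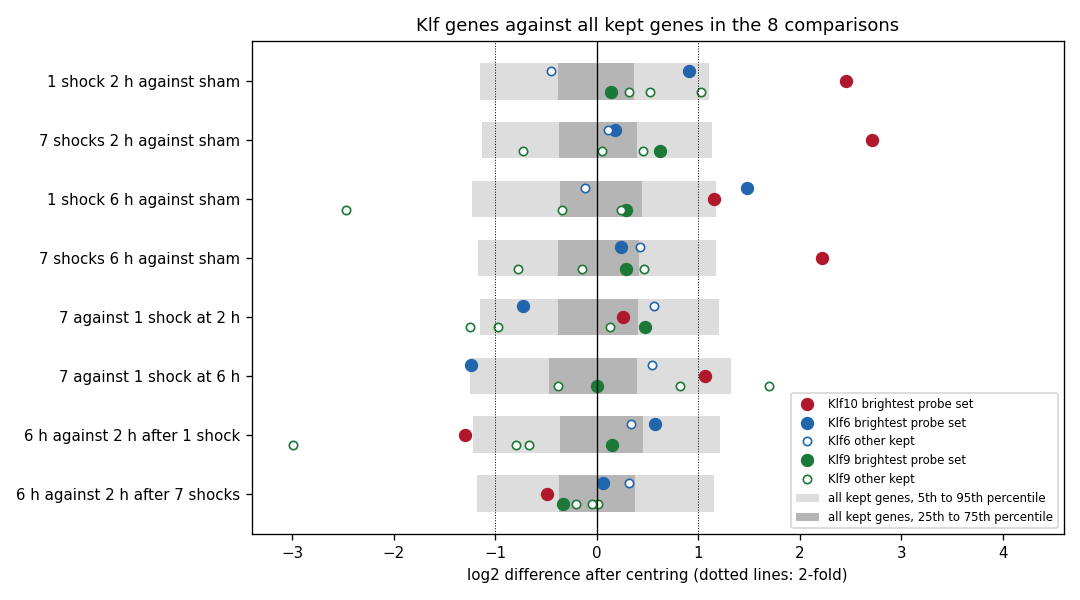
Log2 differences of the kept probe sets of Klf10, Klf6 and Klf9 in the 8 comparisons (filled circles, brightest probe set; open circles, other kept probe sets), over bars for all 6665 kept genes. Dark bars span the 25th to the 75th percentile and light bars the 5th to the 95th, and dotted lines mark 2-fold. Klf10 lies beyond the light bar at 2 h after 1 shock (2.45), 2 h after 7 shocks (2.71) and 6 h after 7 shocks (2.22), and on the lower side in 6 h against 2 h after 1 shock (-1.29).

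Beside Klf10, most of the kept immediate early transcription factors were also high at 2 h. Of 18 listed genes 7 were kept. At 2 h, 6 of the 7 were at least 2-fold above sham after 1 shock (6.29% of all kept genes) and again 6 after 7 shocks (7.1%). Of these 7, Fos, Fosb, Egr2 and Maff had sham signals below the lowest mean that passed the filter, 28.4, and were kept through the ECS arrays where they are high, so the filter partly fixes that count. Egr1, Jun and Ier5 were above it on the sham array, as was Klf10 at 29.5. As deposited, most listed genes below the filter read above sham at 2 h after 1 shock and a few below it. Egr3 read 11.7 against 28.2 on the sham array, and Nr4a3 51.5 against 17. The AP-1 gene Fos stood at 3.87 and 2.58, and the zinc finger genes Egr1 at 2.53 and 2.11 and Egr2 at 2.46 and 2.64, after 1 and 7 shocks. Fosb, another AP-1 gene, stood at 6.08 and 4.24, but its sham signal was 0.3, so the size of these values depends on the pseudocount.

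At 6 h these genes parted. After 1 shock, Fos was 0.89, Egr1 0.33 and Egr2 0.51 above sham on the log2 scale, beside 1.16 for Klf10. After 7 shocks Fos stood at 1.01, Egr1 at 0.24 and Egr2 at 1.85, beside 2.22 for Klf10. The deposited 6 h Fos signals, 24.6 after 1 shock and 28.8 after 7, lay below the medians of their arrays, 26.9 and 30.9. Its sham signal, 9.4, lay below the sham median, 23.4. From 2 h to 6 h after 7 shocks the differences were -1.57 for Fos, -1.87 for Egr1, -0.79 for Egr2 and -0.49 for Klf10. After 1 shock they were -2.99, -2.20, -1.96 and -1.29, in the same order. Over all 7 kept genes of the list the steps ran from -3.53 to -1.08 after 1 shock and from -1.87 to -0.28 after 7, so the Klf10 step lay inside the range of the list on both courses.

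**Figure D3:**
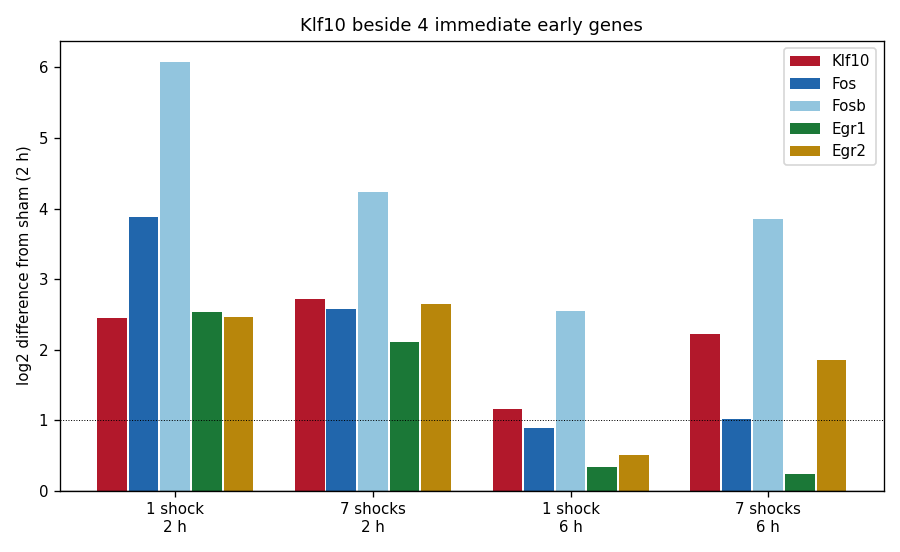
Log2 difference from the 2 h sham for Klf10, Fos, Fosb, Egr1 and Egr2 on the 4 ECS arrays, 1 bar per gene and array, with 2-fold as a dotted line. At 6 h after 7 shocks Klf10 (2.22), Egr2 (1.85), Fos (1.01) and Fosb (3.85) are above 2-fold and Egr1 is at 0.24. The Fosb bars rest on a sham signal of 0.3. The Fos bars at 6 h rest on deposited signals below the medians of their arrays.

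None of the other kept Krüppel-like genes was 2-fold above sham at 2 h. Of 13 listed genes, 10 had probe sets with a single symbol and 5 were kept (Klf3, Klf7, Klf12, Klf13 and Klf15). At 2 h after 1 shock 2 were 2-fold lower and after 7 shocks none, beside 6.83% and 6.86% of all kept genes. The list medians were -0.42 after 1 shock and -0.11 after 7. Klf15, a glucocorticoid-responsive metabolic factor, was at -2.17 at 2 h after 1 shock and between -0.34 and 0.48 on the other 3 arrays. That value rests on a deposited signal of 5.2 against 30.4 in sham. Klf12, a repressor that works through CtBP, was at -1.14 at 2 h and -1.95 at 6 h after 1 shock. After 7 shocks it was at -0.50 and 1.47. Klf12 passed the filter only through the 7 shocks 6 h array, at a deposited signal of 147.6 against 11.8 to 37.2 on the others. Its deposited signals after 1 shock, 14.6 and 11.8, lay below the medians of their arrays, 20.3 and 26.9. Klf3, another CtBP-dependent repressor, was at -1.63 at 6 h after 1 shock and within 0.14 of sham on the other arrays. Its deposited signal at 6 h after 1 shock, 20.6, also lay below the median of that array. Each of these 3 genes has 1 kept probe set. The endothelial factor Klf2 was below the filter, at 8.3 to 16.6 as deposited.

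Sp genes, the nearest relatives of the family, had 3 of 9 listed members kept. The ubiquitous activator Sp1 lay between 0.31 and 0.81 above sham on all 4 ECS arrays. Its sham signal of 22.8 lay below the lowest mean that passed the filter, 28.4, so it was kept through those arrays. Sp3 was 2-fold lower on 1 array, at -1.11 at 2 h after 7 shocks, a call that was lost without rescaling, and Sp4, which is enriched in neurons, ranged from -0.37 to 0.95. The Sp3 value lay within the 5th to 95th percentile of all kept genes in that comparison, -1.13 to 1.13.

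**Figure D4:**
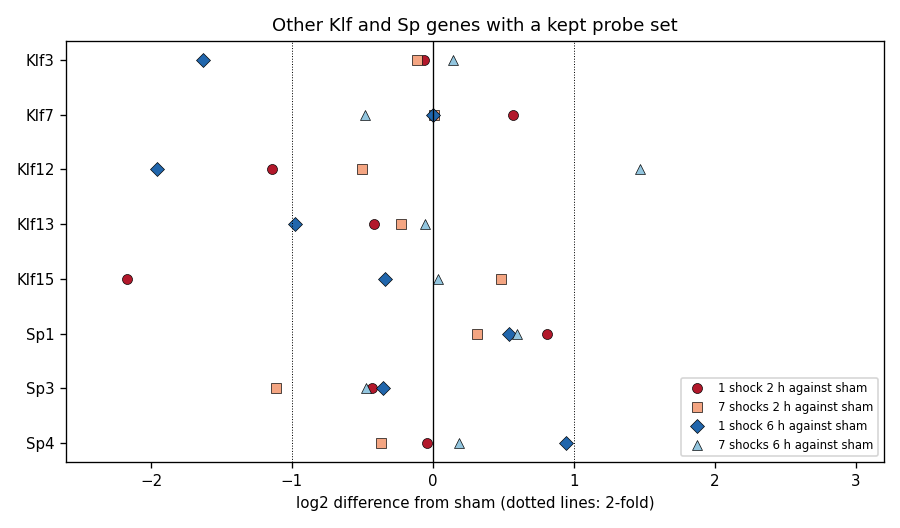
Log2 difference from the 2 h sham for the 5 other Klf genes and 3 Sp genes with a kept probe set, 1 symbol per ECS array, with 2-fold as dotted lines. Klf15 at 2 h after 1 shock (-2.17) and Klf12 and Klf3 at 6 h after 1 shock (-1.95 and -1.63) lie furthest from sham. All are on the lower side and rest on deposited signals below the median of their array.

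Cofactors through which these factors act were measured for 12 of 14 genes. At 2 h after 1 shock 4 were 2-fold higher and 2 lower, beside 6.29% and 6.83% of all kept genes. After 7 shocks at 2 h none passed 2-fold, but 3 were higher without rescaling. The histone acetyltransferase genes Kat2a and Kat2b stood at 1.97 and 1.35 at 2 h after 1 shock, and at 0.50 and -0.31 after 7. The other Kat2a probe set stood at 0.63 after 1 shock. Sin3a, the corepressor bound by Klf9 and Klf10, was at -1.54 and -0.96 on its brightest probe set and at 0.63 and -0.86 on its other. Its complex partner Sap30 was at 1.34 and 0.62. Sin3b was at 1.06 after 1 shock, with -0.17 to 0.43 on its other kept probe sets. Sap30 and Kat2b had sham signals of 26.4 and 27.1, below the lowest mean that passed the filter, 28.4. They were kept through the ECS arrays, so the filter partly fixes the count of higher cofactors. The medians, 0.14 and 0.13, were near those of all genes.

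Of the TGF-beta pathway, which induces Klf10 in other tissues, 7 of 15 genes were kept, with 0 higher and 3 lower at 2 h after 1 shock and 1 in each direction after 7. Without rescaling the counts after 7 shocks were 3 higher and 0 lower. With centring, 6.29% of all kept genes were higher and 6.83% lower after 1 shock, and 7.1% and 6.86% after 7. The signal transducer Smad2 stood at -1.33 and -0.35, the receptor Acvr1b at -1.22 and 1.26, the receptor Tgfbr1 at -0.42 and -1.31 (with -2.32 and -1.58 by a dimmer probe set) and the ligand Tgfb2 at -1.02 and 0.73, after 1 and 7 shocks. Skil stood at 0.58 and 0.26 on its brightest probe set, which the counts use, and at 2.26 and 0.48 on its other. The list median was -0.42 after 1 shock and 0.26 after 7. The ligand Tgfb1 and the inhibitor Smad7, a gene that Klf10 is known to repress, were below the filter, at deposited signals of 0.2 to 1.9 and 5.3 to 43.2. Smad7 was lowest on the sham array (5.3) and read 19.6 to 43.2 on the ECS arrays. Only the reading of 43.2, at 6 h after 7 shocks, lay above the median of its array, 30.9.

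Factors that can drive early induction of Klf genes were kept for 10 of 17 genes, with 1 higher and 2 lower at 2 h after 1 shock and 2 higher and 0 lower after 7. Without rescaling 0 were higher after 1 shock and 4 after 7. With centring, 6.29% of all kept genes were higher and 6.83% lower after 1 shock, and 7.1% and 6.86% after 7. Srf, the serum response factor, passed 2-fold after 1 shock (1.09) and stood at 0.73 after 7. Its partner Elk1 was at -2.09 and -0.50 (-0.10 and -0.62 on its other probe set), Elk4 at 0.89 and 1.34, and the coactivator Mrtfa at 0.06 and 1.95. The kinase gene Map2k5, upstream of Klf2 and Klf4 in endothelium, was at -1.41 and -0.77, and at -1.68 and 0.10 on its other probe set.

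Klf9 was set beside the receptors of hormones known to induce it and beside other glucocorticoid-responsive genes. Of 8 listed hormone receptors 5 were kept, none higher and 2 lower at 2 h after 1 shock, and none past 2-fold after 7. Among all kept genes 6.83% and 6.86% were 2-fold lower in these comparisons. The thyroid hormone receptor gene Thrb stood at -1.53 and -0.93 and the retinoid partner Rxrb at -1.48 and -0.50, while Rxra was at 0.68 and 0.08 and the glucocorticoid receptor gene Nr3c1 at 0.17 and 0.25. All 9 glucocorticoid-responsive genes were kept, of which 4 were 2-fold higher at 2 h after 1 shock and 2 after 7, with 0 lower in either. Without rescaling these counts were 2 and 4. With centring, 6.29% and 7.1% of all kept genes were 2-fold higher. The kinase gene Sgk1 was at 1.74 and 1.54, Zbtb16 at 2.10 and 0.73, the clock gene Per1 at 1.11 and 1.36 and the phosphatase gene Dusp1 at 1.10 and 0.34. The sham signals of Rxra and Per1, 20.7 and 25.5, lay below the lowest mean that passed the filter, 28.4. Both were thus kept through the ECS arrays. Fkbp5 was at -0.82 and 0.87, Tsc22d3 at 0.24 and 0.27 and Nfkbia at -0.12 and 0.15. Ddit4 was at -0.01 and 0.17, and Cdkn1a at 0.79 and 0.19. Klf9 stood at 0.14 and 0.62 in the same comparisons.

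Genes known as targets of these factors were mostly too dim to read, with 3 of 10 kept. The cell cycle inhibitor Cdkn1a, induced by Klf4 and Klf6, was at 0.79 at 2 h after 1 shock and 0.19 after 7. Cyclin gene Ccnd1 was at 0.41 and -0.16, and the growth factor receptor Igf1r at -1.37 and 0.03. The clock gene Arntl (Bmal1), a target of Klf10 in liver, was below the filter, at deposited signals of 20.2 to 29.6.

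By likeness of pattern over the 5 arrays, the genes nearest to Klf10 were Rap1b (r = 0.988), Rnd3 (0.985) and Cttn (0.985), among 3287 kept genes that ranged over at least 2-fold. Rap1b, a small GTPase, had centred signals of 192 on the sham array, 385 and 298 at 2 h and 6 h after 1 shock, and 443 and 364 after 7. The nearest to the brightest Klf6 probe set were Trim8 (0.996), Tmem223 (0.994) and Ranbp3 (0.990), and to that of Klf9 Dpp6 (0.998), Twsg1 (0.996) and Shisa5 (0.993). These are descriptions over 5 arrays, and 20 genes had r of 0.95 or more with Klf10. Between the members themselves r was 0.69 for Klf9 and Klf10, 0.06 for Klf6 and Klf10 and -0.02 for Klf6 and Klf9.

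Markers of other cell types were read beside the Klf10 values. Summed centred signals of 9 neuron markers ran from 14712 to 17222 over the arrays, of 8 astrocyte markers from 6668 to 7867, of 6 oligodendrocyte markers from 5251 to 5916 and of 8 microglia markers from 1909 to 2118. At 2 h after 7 shocks, where Klf10 was highest, 3 of the 8 microglia markers were 2-fold below sham, beside 6.86% of all kept genes. These were P2ry12 at -2.24, Aif1 at -1.59 and Csf1r at -1.53. Tyrobp stood at -0.60 and C1qc at -0.46. Above sham were C1qb at 0.89 (-0.56 to 0.66 on its other kept probe sets), Laptm5 at 0.82 and Ctss at 0.18. The deposited P2ry12 and Aif1 signals on that array, 16.1 and 27.1, lay below its median, 31.6. After 1 shock at 2 h, 1 of the 8 was 2-fold below sham (Csf1r, -1.31), beside 6.83% of all kept genes, and Laptm5 stood at 0.76. At 6 h after 7 shocks 2 were 2-fold below sham (P2ry12, -1.94, and Csf1r, -1.17), beside 7.25% of all kept genes. At 6 h after 1 shock P2ry12 alone was (-1.02), beside 7.73%. None of the 8 was 2-fold above sham at 6 h. The sum of 4 VMH markers ran from 1909 on the sham array to 3107 at 6 h after 1 shock. Adcyap1, which encodes the peptide PACAP, had 611 of the sham sum and 900 to 1373 on the ECS arrays. Without it the sum was 1298 on the sham array, 1178 at 2 h after 1 shock and 1368 to 1763 on the other 3, so the sham array was then not the lowest. The PVN list had 3 of 6 genes kept, with sums of 136 on the sham array and 184 to 240 on the ECS arrays. Among them, Avp and Oxt had sham signals of 7.1 and 12.6, below the lowest mean that passed the filter, 28.4. None of the marker sums was at 0. The part of these lists in the Klf10 values was not tested.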

How the data were processed

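The deposited values are MAS5 signal intensities, 1 per probe set on a linear scale, per the submitters' processing notes. Software version, target intensity and detection calls: not given in the sources used here. RNA was amplified to cDNA before labelling, per the labels' protocols.

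Probe sets were named by the platform annotation, and 64 controls and probe sets with several symbols or none were set aside, which left 20380. To each intensity 1.2 was added (10th percentile over the table) and log2 taken. Filtering to the upper 50% by mean left 10401 probe sets of 6665 genes, whose median was made equal across arrays. The brightest kept probe set stood for its gene. A call was a log2 difference of 1. The procedure was tested on simulated data. Members and lists were chosen with earlier results of these data known.

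The genes named were the members, other Klf and Sp genes past 2-fold against sham with the range of the rest, up to 4 genes per list with the largest 2 h differences, and the 3 most correlated genes per member. Klf2, Tgfb1, Smad7, Arntl, Srf and single cell type markers were added after their values were seen, as were marker sums without Adcyap1 or Tek. The same holds for Sin3b, Skil, Egr3, Nr4a3, Fkbp5, Tsc22d3, Nfkbia and Ddit4. Python 3.11.15, pandas 2.3.3, numpy 2.4.6 and limma 3.58.1 (cyclic loess) were used. Other normalizations (none, quantile, cyclic loess) were tried as alternatives, as were other pseudocounts, filters and probe set rules, and a 1.5-fold call.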

Additional observations from a re-analysis of the deposited data

How the results depend on the processing

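Of 104 recomputed differences from sham of Klf6, Klf9 and Klf10, 101 kept their side of 2-fold, counting a change of sign below 2-fold as kept. Klf10 ranged from 2.28 to 2.56 at 2 h after 1 shock, 2.55 to 3.22 at 2 h after 7 shocks, 1.04 to 1.55 at 6 h after 1 shock and 2.06 to 2.71 at 6 h after 7 shocks. The exceptions were Klf6 at 6 h after 1 shock, which was 0.68 as the mean of kept probe sets and -0.11 on the second brightest probe set, and Klf9 at 2 h after 7 shocks, which was 1.13 without rescaling. On second probe sets, Klf6 in 7 against 1 shock at 6 h was 0.54, and Klf4 was -2.51 at 6 h after 7 shocks, -1.87 in 7 against 1 shock at 6 h and -1.31 in 6 h against 2 h after 7 shocks. Klf10 in 7 against 1 shock at 6 h was 0.97 without the low value filter, and from 2 h to 6 h after 1 shock it was -0.77 without rescaling. Without rescaling, Klf6 from 2 h to 6 h after 1 shock was 1.10 and Klf9 in 7 against 1 shock at 2 h was 1.11. Klf9 from 2 h to 6 h after 1 shock was -1.08 as the mean of kept probe sets, against 0.14 on the brightest. The cause of these changes was not tested. Of 24 member values, 8 passed 2-fold, and 6 to 11 under the alternatives. The count of 6 is from second brightest probe sets. Klf10 has none, so its main values were carried over, and all 6 are of Klf10. No Klf6 or Klf9 value passed 2-fold there. Of 72 list counts recomputed, 24 moved by more than 1.5 times, 16 of them with the top 25% filter, which holds fewer genes. No paired analysis was possible because each group has 1 array, and no array could be left out. Low signal and probe sets that conflict limit Klf4.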
